A study of Homo sapiens with 3 samples.

Results

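The genes described here encode the NF-kB transcription factor subunits and the proteins that restrain, feed back on or mark its activity: NFKB1, NFKB2, RELA, RELB, REL, NFKBIA, TNFAIP3, BIRC2, BIRC3 and ICAM1. These 10 genes, of 19974 protein-coding genes on the chromosomes covered, were followed through all peaks of histone H4 lysine 12 lactylation (H4K12la) that overlapped their RefSeq span extended by 20 kb on each side. The windows of BIRC2 and BIRC3 overlap, which leaves 9 merged windows of 678 kb. They held 45 of the 62777 peaks of 786-O, 38 of the 60760 peaks of Caki-1 replicate 1 and 43 of the 67839 peaks of Caki-1 replicate 2. No member was filtered out for a low value, and all 10 are accounted for.

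The assay was CUT&Tag, where a transposase is tethered by an antibody and cuts near the marked histone. The cells were untreated 786-O and Caki-1, established human renal carcinoma lines, of which 786-O lacks functional VHL and Caki-1 retains it. 786-O was represented by 1 library (replicate 2) and Caki-1 by 2 (replicates 1 and 2), and with 1 library against 2 the smallest permutation p is 0.333, so no difference between the lines was tested and 786-O carries no replicate error. The labels do not say whether the Caki-1 libraries came from separate cultures. The read depth behind the lists is unknown, and a missing peak means only that none was listed there.

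NF-kB factors are dimers of Rel-domain proteins that are held in the cytoplasm by inhibitors of the IkB family until kinase complexes mark the inhibitors for degradation. In the canonical arm RELA and the processed product of NFKB1 enter the nucleus, and in the non-canonical arm RELB pairs with the processed product of NFKB2. NFKBIA, TNFAIP3, BIRC3 and ICAM1 are well-known target genes of the factor, and the first of these feed back on it.

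The promoters of 4 of the 10 genes are shown as examples: at NFKBIA, BIRC3 and ICAM1 the stretch before the start lay under a peak in some libraries and not in others, and at REL it lay under a high-ranked peak in all 3. Each sequence is the 250 bases before the RefSeq start (GRCh38.p14), read towards the gene, and capitals mark letters that match the kappa B consensus on either strand.
REL (chr2:60881324-60881573, plus strand): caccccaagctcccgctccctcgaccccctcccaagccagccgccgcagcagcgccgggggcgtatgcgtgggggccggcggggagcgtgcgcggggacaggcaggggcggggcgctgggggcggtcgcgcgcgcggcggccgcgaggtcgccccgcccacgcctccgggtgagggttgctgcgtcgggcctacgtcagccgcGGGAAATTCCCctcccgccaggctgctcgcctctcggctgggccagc
NFKBIA (chr14:35404750-35404999, minus strand): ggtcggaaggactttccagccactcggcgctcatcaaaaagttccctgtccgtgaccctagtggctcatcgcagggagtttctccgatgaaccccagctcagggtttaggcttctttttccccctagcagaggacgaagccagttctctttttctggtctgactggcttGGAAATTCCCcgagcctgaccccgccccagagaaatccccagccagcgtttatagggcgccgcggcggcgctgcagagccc
BIRC3 (chr11:102317234-102317483, plus strand): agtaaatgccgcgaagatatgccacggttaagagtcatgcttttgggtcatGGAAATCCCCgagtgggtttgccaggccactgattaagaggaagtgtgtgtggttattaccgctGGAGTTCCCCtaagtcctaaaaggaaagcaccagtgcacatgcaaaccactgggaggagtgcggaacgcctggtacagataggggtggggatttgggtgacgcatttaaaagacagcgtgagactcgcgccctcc
ICAM1 (chr19:10270870-10271119, plus strand): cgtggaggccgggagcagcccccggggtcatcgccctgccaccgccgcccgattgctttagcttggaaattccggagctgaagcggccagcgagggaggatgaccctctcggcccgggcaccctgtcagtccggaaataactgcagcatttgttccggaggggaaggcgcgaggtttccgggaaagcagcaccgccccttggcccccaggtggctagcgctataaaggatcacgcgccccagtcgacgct

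Counted backwards from the start, the match in REL covers bases 47 to 37, where matches on the 2 strands overlap by all but 1 base each, that in NFKBIA bases 81 to 72, and those in BIRC3 bases 199 to 190 and 135 to 126. The consensus was read as GGGRNNYYCC, where R is A or G, Y is C or T and N is any base. ICAM1 holds no match to it in these letters, though its stretch tggaaattcc differs in the first letter alone. A TATAAA lies at bases 30 to 25 of ICAM1. Of the 9 members in the RefSeq promoter table (RELB has no entry), 6 held the consensus in at least 1 upstream window, namely NFKB1, NFKB2, REL, NFKBIA, TNFAIP3 and BIRC3, and 7 of the 14 windows of the 9 members matched, against 11.3% of the 22140 upstream windows of protein-coding genes. A looser form that fixes only the outer letters, and so includes every consensus match, was found in 13 of the 14 windows and in 62.5% of all. GGGCGG was found in 11 of the 14 windows (53.7% of all), TATAAA in 2 (9.002%), in NFKBIA and ICAM1, and TGACTCA in 0 (3.45%). A match describes letters and not a bound site.

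Peaks were read first at gene ends, taken as the stretch within 1 kb of an annotated end. All 10 members had such a peak in 786-O, against 52.7% of protein-coding genes. In each Caki-1 library 8 members had one, against 55.1% in replicate 1 and 57.6% in replicate 2, and the missing genes were NFKBIA and BIRC3 in replicate 1 and NFKB2 and BIRC3 in replicate 2. Gene-end peaks in every library were found at 7 members, NFKB1, RELA, RELB, REL, TNFAIP3, BIRC2 and ICAM1, against 44.3% of protein-coding genes. Counted over the promoter window itself, from 250 bases before to 50 after a start, 6 of the 9 members in the table, NFKB1, NFKB2, RELA, REL, TNFAIP3 and BIRC2, had a peak in all 3 libraries, against 43.3% of the genes in that table. The 2 Caki-1 libraries therefore differed from each other in 2 of the 10 members at gene ends, as far as each differed from 786-O.

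**Figure D1:**
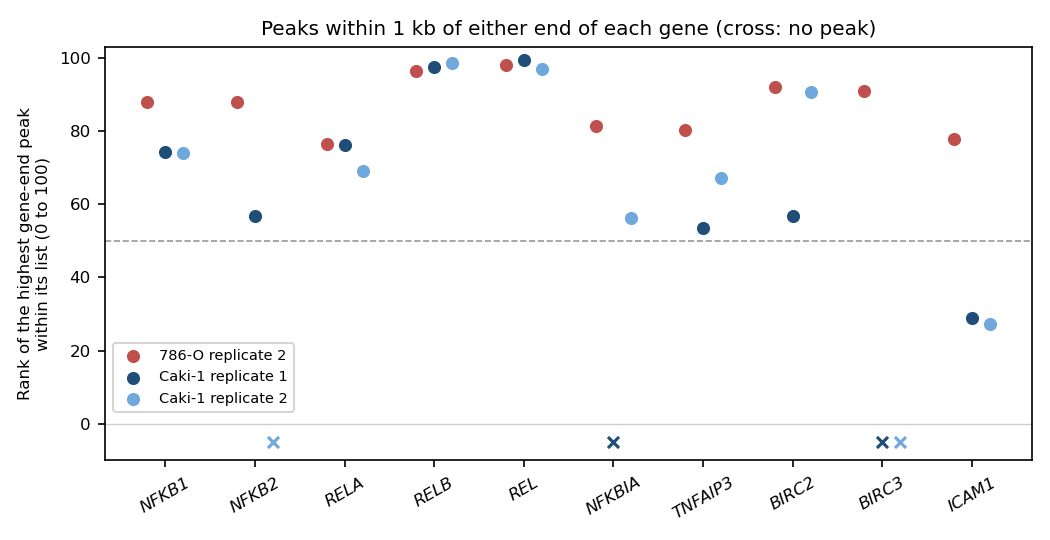
Rank of the highest peak within 1 kb of either end of each of the 10 genes, as a percentile (0 to 100) of the deposited column 6 value within the peak's own list; each point is 1 library, a cross marks no such peak and the dashed line is the middle of a list. RELB and REL sit above 96 in all 3 libraries, and the crosses fall at NFKB2 (Caki-1 replicate 2), NFKBIA (Caki-1 replicate 1) and BIRC3 (both Caki-1 libraries).

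The strength of a peak is given as its deposited column 6 value and as its rank within its own list (0 to 100). The lists have no header. From its values, column 6 was read as a signal at the summit in 786-O and Caki-1 replicate 1. In Caki-1 replicate 2 it was read as a score on another scale, and neither reading is given by the labels. List medians were 21, 21 and 48. These values are the authors' and were not scaled to depth, so they are set side by side and not compared between libraries.

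REL and RELB carried the highest-ranked gene-end peaks of the group in each library. REL encodes c-Rel, a subunit best known in lymphocytes, and spans 60881574 to 60931612 on chromosome 2. Its start-site peak had a signal of 75 (rank 98.0) in 786-O and 88 (rank 99.4) in Caki-1 replicate 1, and a score of 243 (rank 97.1) in replicate 2. The peak was in the top 10% of each list, and its summit lay 0 bp from the annotated start in 786-O and 6 bp into the gene in Caki-1 replicate 1. It measured 931, 1442 and 2406 bp in the same order, the last from 60880792 to 60883197, and reached across the end of the divergent transcript gene REL-DT in each library. All 3 peaks covered the kappa B match shown for REL above. Within the gene the further peaks were weak: ranks lay from 14.3 to 46.3 in the 3 libraries together.

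RELB, the subunit of the non-canonical arm, spans 45001464 to 45038192 on chromosome 19. At its lower end it had signals of 64 (rank 96.4) in 786-O and 65 (rank 97.6) in Caki-1 replicate 1 and a score of 308 (rank 98.6) in replicate 2. The summits of 786-O and Caki-1 replicate 1 fell on the same base, 630 bp above the lower end. The peaks measured 580, 502 and 1020 bp, and that of replicate 2 (45001263 to 45002282) alone covered the lower end itself. A weaker peak at the higher end, with ranks of 67.7, 56.8 and 61.6, also lay within 1 kb of the neighbouring gene CLASRP and cannot be assigned to either gene. Another 3 regions near RELB were found in both Caki-1 libraries but not in 786-O, at 15358, 44583 and 55690 bp from its lower end in replicate 1. Their ranks were 59.8, 42.3 and 77.9 in replicate 1 and 60.2, 17.8 and 7.51 in replicate 2. Those at 44583 and 55690 bp lay beyond the gene.

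RELA, the main transactivating subunit of the canonical arm, spans 65653601 to 65663857 on chromosome 11 on the minus strand. Its window held the same 2 regions in all 3 libraries and nothing else, 1 at the start and 1 beyond the far end. In Caki-1 replicate 1 the peak at the start began 21 bp before the annotated start and covered it. In 786-O and replicate 2 it began 158 and 2 bp inside the gene. The start peak had signals of 18 (rank 35.9) in 786-O and 27 (rank 67.7) in Caki-1 replicate 1 and a score of 66 (rank 65.3) in replicate 2. Its summit lay 710 bp inside the gene in both libraries with a summit. In each library the start peak also lay within 1 kb of an end of RELA-DT. It was below the middle of its list in 786-O and above it in both Caki-1 libraries. The peak beyond the far end had ranks of 76.4, 76.2 and 69.0, so in each library it ranked above the peak at the start.

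NFKB1 encodes the precursor of the DNA-binding partner of RELA and spans 102501359 to 102617302 on chromosome 4. Around its start 786-O listed 2 narrow peaks, 102500484 to 102500979 (signal 29, rank 69.7) and 102501683 to 102502188 (signal 44, rank 88.0), with 703 bp between them that held the first annotated start. Both Caki-1 libraries listed a single peak across the same stretch, of 2058 bp (signal 30, rank 74.3) and 2097 bp (score 82, rank 73.9). By width these ranked 99.9 and 99.8 in their lists, while the 786-O peaks of 496 and 506 bp ranked 49.8 and 51.3. The upper end of the stretch was at 102502188 in both signal lists and at 102502193 in Caki-1 replicate 2, while its lower end was at 102500484 in 786-O and at 102500131 and 102500097 in Caki-1. The second annotated start, at 102501934, was covered in all 3 libraries. The peak over it also lay within 1 kb of an end of NFKB1-AS1 in each.

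The long body of NFKB1 held mostly peaks of single libraries. Its window held 13, 9 and 10 peaks in 786-O and Caki-1 replicates 1 and 2. Of its 22 regions, 8 were listed for 786-O alone, 3 for Caki-1 replicate 1 alone and 5 for replicate 2 alone. The Caki-1 replicates shared 2 regions without 786-O, 786-O and Caki-1 replicate 1 shared 1, and 3 were common to every library. Regions of single libraries were also frequent over the genome, at 24.5% for 786-O and 14.0% and 18.7% for Caki-1 replicates 1 and 2. Whether NFKB1 differs from other genes in this was not tested. The body peaks away from the ends were weak, with the highest rank at 60.9 in 786-O and 42.3 and 58.9 in the Caki-1 libraries. Of the stronger ones beyond the gene, a peak at LOC105377347, an uncharacterised transcript gene, was found in all 3 libraries at ranks of 74.9, 83.5 and 75.7, and 1 at 102627826 to 102628313 (signal 40, rank 84.6) in 786-O alone.

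NFKB2, whose product is processed in the non-canonical arm, spans 102394110 to 102402529 on chromosome 10 and has 3 annotated starts. The peak at the third start (102395705) was found in all 3 libraries, with signals of 40 (rank 84.6) in 786-O and 29 (rank 72.3) in Caki-1 replicate 1 and a score of 52 (rank 54.2) in replicate 2. The first and the second start were covered in 786-O alone, by a peak of 854 bp (102394058 to 102394911, signal 44, rank 88.0). In Caki-1 the nearest peak began 1436 and 1160 bp inside the first start, in replicates 1 and 2. The 786-O library thus differed from both Caki-1 libraries in which NFKB2 starts lay under a peak. With 1 library of 786-O, a difference between the lines was not tested. The gene-end peak of Caki-1 replicate 1 was at the far end (signal 23, rank 56.8), within 1 kb of the end of PSD as well. A region at the ends of PSD and FBXL15, 26663 bp from the start in 786-O, also held peaks in all 3 libraries, with ranks of 81.5, 65.3 and 10.

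**Figure D2:**
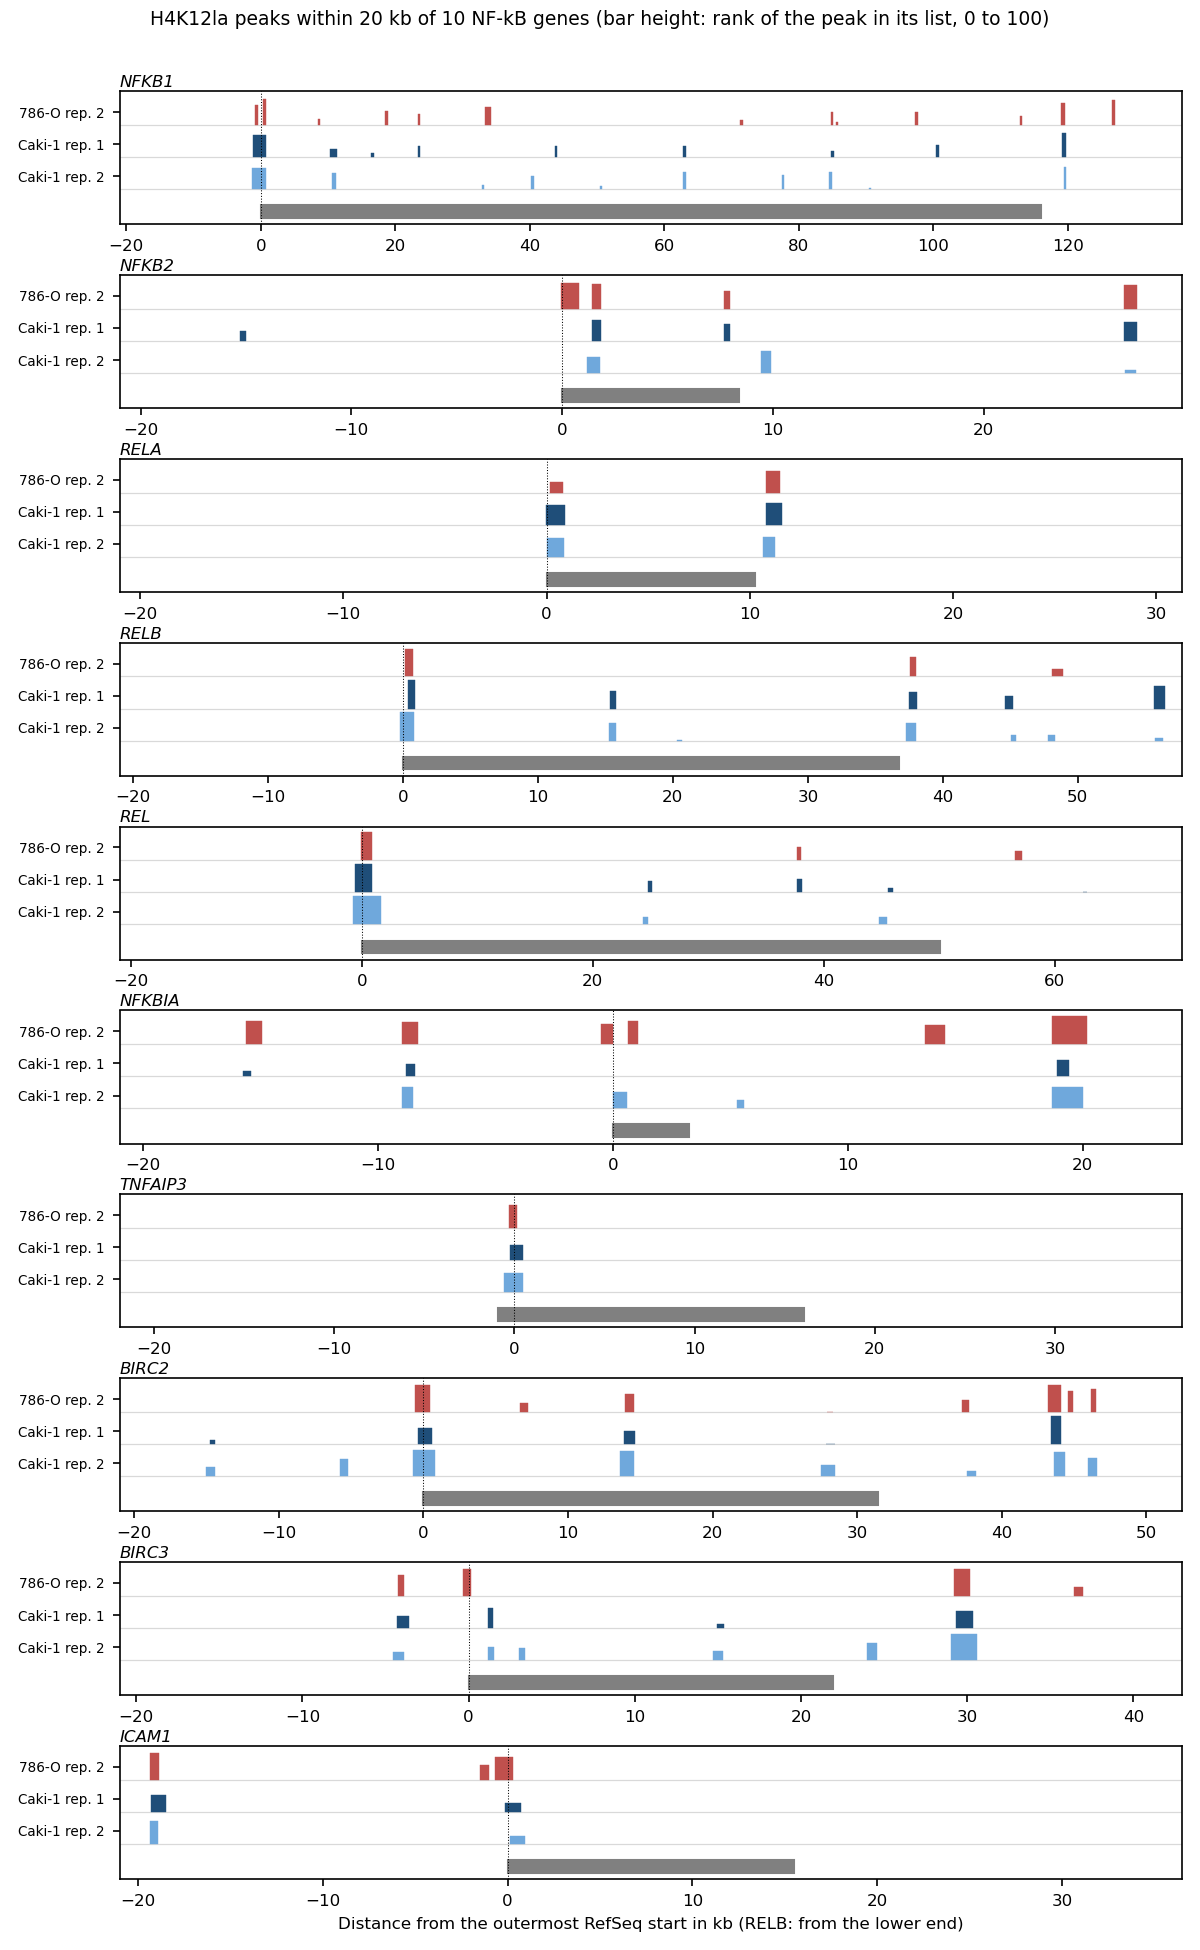
Peaks within 20 kb of each of the 10 genes, drawn to scale by distance in kb from the outermost RefSeq start in the direction of transcription (for RELB from its lower end). Rows are libraries, bar width is peak width, bar height is the rank of the peak within its own list from 0 to 100, and the grey bar is the gene. TNFAIP3 holds 1 peak in each library, RELA 2, and NFKBIA holds 6, 3 and 4.

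Among the feedback genes, NFKBIA encodes the inhibitor IkB alpha. It spans 35401513 to 35404749 on chromosome 14 on the minus strand. 786-O listed a peak from 507 bp before to 4 bp after the start (signal 30, rank 71.5), which covers the kappa B match shown above, and a second 642 to 1057 bp inside the gene (signal 37, rank 81.5). Caki-1 replicate 2 listed 1 peak from 4 bp before to 590 bp after the start (score 54, rank 56.3), which lay downstream of that match. Caki-1 replicate 1 listed none within 5 kb of the gene, and its nearest peak was 8432 bp from the start. The start of NFKBIA was therefore marked in 786-O and in 1 of the 2 Caki-1 libraries, and this gene does not separate the lines.

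The surroundings of NFKBIA held its strongest peaks. A region beyond the far end, 18.7 kb from the start in 786-O, had a signal of 67 (rank 96.9) in 786-O over 1502 bp (35384549 to 35386050), a signal of 23 (rank 56.8) over 529 bp in Caki-1 replicate 1 and a score of 83 (rank 74.3) over 1324 bp in replicate 2. It was the highest-ranked peak of the window in each library, above any peak at the start. A second region, 8312 bp upstream in 786-O, also held peaks in all 3 libraries (ranks 76.4, 42.3 and 73.1). In 786-O the NFKBIA window had 13.9 peaks per 100 kb, the highest density of the 10 genes in that library, against 6.94 and 9.25 in Caki-1. Chromosome 14 as a whole held 3.65% of the peaks of 786-O and 1.65% and 1.68% of those of Caki-1, and the part of this in the NFKBIA values was not tested.

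TNFAIP3 encodes a ubiquitin-editing enzyme that shuts off signalling to the IkB kinases, and spans 137866349 to 137883312 on chromosome 6. It had 1 peak in each library and no other within 20 kb: at its start, with signals of 36 (rank 80.3) in 786-O and 22 (rank 53.6) in Caki-1 replicate 1 and a score of 69 (rank 67.3) in replicate 2. The peaks measured 447, 729 and 1101 bp and each covered the annotated start (137867259) and came within 1 kb of the end of the lncRNA gene WAKMAR2. Its density of 1.76 peaks per 100 kb was the lowest of the 10 genes in all 3 libraries. Chromosome 6 held 6.55% of the peaks of 786-O and 3.24% and 3.25% of those of Caki-1, and the part of this in the TNFAIP3 values was not tested.

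BIRC2 and BIRC3 are neighbours on chromosome 11 and encode ubiquitin ligases that act at tumour necrosis factor receptors and keep the kinase of the non-canonical arm low. At the start of BIRC2 (102347214 to 102378670) the peak had signals of 51 (rank 92.1) in 786-O and 23 (rank 56.8) in Caki-1 replicate 1 and a score of 152 (rank 90.7) in replicate 2. It covered both annotated starts in all 3 libraries and measured 986, 1000 and 1568 bp. A region past the far end, 43205 bp from the start in 786-O, had ranks of 94.5, 96.7 and 84.3, from signals of 57 and 60 and a score of 115. It ranked above the start peak in 786-O and Caki-1 replicate 1 and below it in replicate 2. In Caki-1 replicate 1 this distal peak (102390613 to 102391273) was the strongest of the window. In all, 4 of the 10 regions of the BIRC2 window held peaks in all 3 libraries.

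At BIRC3 (102317484 to 102339403) the 786-O library differed from both Caki-1 libraries in the position of the peak next to the start. 786-O listed a peak of 479 bp (102317175 to 102317653, signal 49, rank 91.0) from 309 bp before to 169 bp after the start, with its summit 55 bp before it. This peak covers both kappa B matches shown for BIRC3, and it also lay within 1 kb of an end of the gene LOC124902739. In Caki-1 no peak covered that stretch, and the nearest ones began 1156 bp (signal 27, rank 67.7) and 1150 bp (score 42, rank 43.6) inside the gene in replicates 1 and 2, where 786-O listed none. These Caki-1 peaks overlapped each other. A region 3900 bp before the start in 786-O held peaks in all 3 libraries, with ranks of 71.5, 42.3 and 26.0. Since a peak lay within 5 kb in both lines, BIRC3 is not a gene marked in 1 line alone.

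ICAM1, an adhesion molecule that binds leukocyte integrins, spans 10271120 to 10286615 on chromosome 19. Its start-site peak had a signal of 34 (rank 77.8) in 786-O, a signal of 16 (rank 29.0) in Caki-1 replicate 1 and a score of 32 (rank 27.4) in replicate 2. It was above the middle of its list in 786-O and below it in both Caki-1 libraries. The position also moved: the peak ran from 691 bp before to 264 bp after the start in 786-O, from 130 bp before to 727 bp after in Caki-1 replicate 1, and from 152 to 950 bp after in replicate 2. A second peak just upstream, 1001 bp from the start, was listed in 786-O alone (signal 22, rank 51.9). The stronger peak of the window in each library, at ranks of 92.1, 56.8 and 79.3, lay at the end of the mitochondrial ribosomal protein gene MRPL4, and no peak lay at the neighbouring ICAM4 and ICAM5.

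Peak density in the windows was set beside that of all genes. Members had a median of 5.93, 6.12 and 6.30 peaks per 100 kb of window in 786-O and Caki-1 replicates 1 and 2, against medians of 3.72, 3.54 and 4.03 over all protein-coding genes with the same extension. In the same order 8, 9 and 6 of the 10 members lay above those medians, and TNFAIP3 lay below in each library. Presence of a peak in the window says little, since 85.3%, 82.5% and 83.9% of protein-coding genes had one. The median rank of the window peaks was 71.5 in 786-O, 46.3 in Caki-1 replicate 1 and 55.0 in replicate 2, where 50 is the middle of a list. In 786-O 7 of the 45 peaks were in the top 10% of the list (15.6%, 95% exact interval 6.49 to 29.5), in Caki-1 3 of 38 (7.89%, 1.66 to 21.4) and 3 of 43 (6.98%, 1.46 to 19.1), and all of these intervals include 10%.

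Sharing between the lines was then read beside sharing between the Caki-1 libraries. Of the 786-O window peaks, 25 of 45 (55.6%, 95% exact interval 40.0 to 70.4) overlapped a peak of Caki-1 replicate 1 and 25 of 45 one of replicate 2, against 44.5% and 47.8% over the whole list. Of the Caki-1 window peaks, 24 of 38 and 24 of 43 overlapped 786-O (63.2% and 55.8%, against 46.0% and 43.9% over the whole lists), and 28 of 38 and 28 of 43 overlapped the other replicate (73.7% and 65.1%, against 66.2% and 58.8%). Both in the windows and over the whole lists, each Caki-1 library thus had more of its peaks in the other replicate than in 786-O. In the windows the intervals of these shares overlap, 46.0 to 78.2 against 56.9 to 86.6 for replicate 1 and 39.9 to 70.9 against 49.1 to 79.0 for replicate 2. At the members' own ends all 10 peaks of each Caki-1 library were found in 786-O, and 11 of the 15 peaks of 786-O were found in each Caki-1 library. Away from the ends 14 of 28 and 14 of 33 Caki-1 peaks were found in 786-O, and 19 of 28 and 19 of 33 in the other replicate. The whole lists were not split by gene ends, so whether these counts differ from those at other genes was not tested. The intervals cover counting error only.

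**Figure D3:**
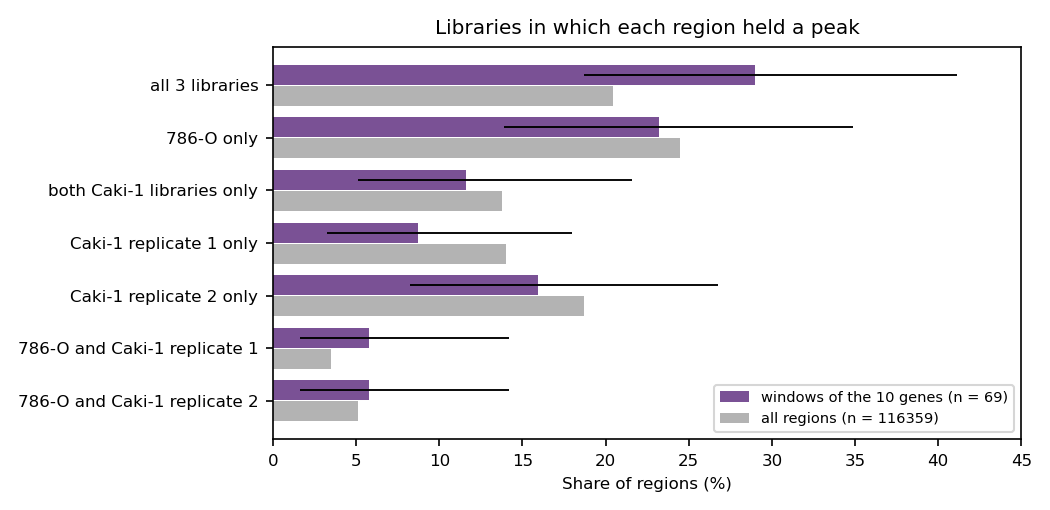
Share (%) of regions by the libraries in which they held a peak, for the 69 regions in the windows of the 10 genes (purple, with 95% exact binomial intervals) and for all 116359 regions of the 3 lists (grey). Regions found in all 3 libraries made up 29.0% of the first and 20.5% of the second, and every grey bar lies inside the interval of its purple bar.

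Joined over the libraries, the windows held 69 regions. 20 (29.0%, 95% exact interval 18.7 to 41.2) were found in all 3 libraries, 16 (23.2%, 13.9 to 34.9) in 786-O only and 8 (11.6%, 5.14 to 21.6) in both Caki-1 libraries only. Over the genome the shares were 20.5%, 24.5% and 13.8%, all inside those intervals. No member had a gene-end peak in 1 line and none within 5 kb in the other, a pattern met by 2.37% of protein-coding genes for 786-O and 4.33% for Caki-1. Without Caki-1 replicate 2, NFKBIA met it for 786-O.

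The rest of the pathway was read from 5 lists by role, with 76 distinct genes. Of these, 48 (63.2%) were marked at a gene end in 786-O, 49 (64.5%) and 54 (71.1%) were so in Caki-1, and 35 (46.1%) in every library, near the 44.3% of all protein-coding genes. None of the 9 ligand genes and 2 of the 11 receptor genes had a peak in all 3 libraries, against 15 of 25 adaptor and kinase genes, 8 of 12 further inhibitor and deubiquitinase genes and 11 of 20 further target genes. TNF and IL1B, which encode the leading inflammatory ligands, and TNFRSF1A, the main receptor of TNF, had no gene-end peak in any library. With 9 to 25 genes a list, these counts are descriptions.

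**Figure D4:**
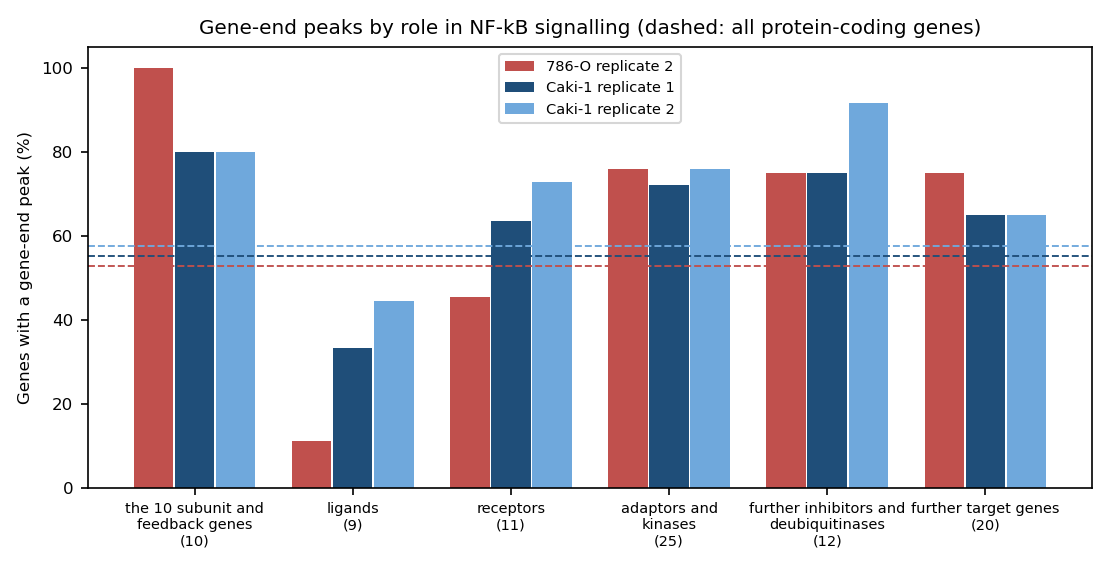
Share (%) of genes with a peak within 1 kb of either end, by role, for each library (bars, number of genes in brackets) and for all protein-coding genes (dashed lines at 52.7%, 55.1% and 57.6%). The ligand bars lie below the lines in all 3 libraries (11.1%, 33.3% and 44.4%), and the bars of adaptors and kinases, inhibitors and deubiquitinases, and target genes lie above them. The receptor bars lie below the line in 786-O (45.5%) and above it in both Caki-1 libraries (63.6% and 72.7%).

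By their lowest rank over the 3 libraries, the leading genes of the lists were IL1RAP among the receptors, CHUK among the adaptors and kinases, OTULIN among the inhibitors and SOD2 among the targets; other genes ranked higher in single libraries. At IL1RAP (chromosome 3), the co-receptor for interleukin 1, signals were 61 and 49 and the score 180. CHUK, the catalytic IkB kinase subunit needed in the non-canonical arm, was marked on chromosome 10 at 100185587 to 100186618 in 786-O, with signals of 66 and 61, and the score was 203. Both genes ranked at 93.3 or higher in every list. OTULIN, which removes linear ubiquitin chains, had 75, 80 and 218, and SOD2, the mitochondrial superoxide dismutase, had 88, 55 and 188. The gene-end peaks of list genes, that of CHUK included, can lie at either end of the gene. Neighbouring genes were not looked up for them, so such a peak may lie at the start of a neighbour.

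10 of the 76 genes had a gene-end peak in 1 line with none within 5 kb in the other. For 786-O these were LTA, TLR4, IKBKG and TNFAIP2 (5.26%, against 2.37% of all protein-coding genes), with signals of 33, 27, 23 and 29. IKBKG has a near-identical pseudogene copy, so its value is uncertain. For Caki-1 they were LTB, TNFSF13B, IL1R1, TLR2, TLR3 and TRADD (7.89%, against 4.33%). IL1R1, the signalling receptor of interleukin 1, ranked highest of these, at 102070053 to 102070767 of chromosome 2 in replicate 1, where the signal was 42 (rank 89.3), and the score in replicate 2 was 180 (rank 93.5). TRADD, the adaptor of the TNF receptor, had a signal of 38 and a score of 88, and the double-stranded RNA receptor TLR3 had 24 and 93. TNFSF13B ranked at 53.6 and 82.9 in replicates 1 and 2. The peaks of LTB (ranks 29.0 and 17.8) and TLR2 (ranks 9.42 and 22.0) were weak in both. The counts for 786-O rest on 1 library.

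The lines were labelled renal cancer cells. Among the renal epithelial marker genes, CDH16 had gene-end peaks in all 3 libraries, PAX8 and EPCAM in both Caki-1 libraries, and PAX2 and LHX1 in none. At PAX8 and EPCAM 786-O had a peak within 5 kb of an end, so neither was marked in Caki-1 alone by the rule used above. The EPCAM peak of Caki-1 replicate 1 was weak (signal 12, rank 9.42). Among the leukocyte and endothelial markers, PTPRC, CD3E and PECAM1 had none, CD14 had one in all 3 libraries, and CDH5 had one in Caki-1 replicate 1. At the 20 kb limit of the windows, peaks 15 to 20 kb from the nearest member had signals of 37 to 67 in 786-O and 14 to 32 in Caki-1 replicate 1 and scores of 21 to 96 in replicate 2, and those 20 to 25 kb away had 16 to 21, 13 to 19 and 40 to 69.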

How the data were processed

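Per the labels' protocols, CUT&Tag libraries were made from untreated cells with an antibody against H4K12la. GRCh38 and hg38 are the builds, and fastp 0.19.6, deepTools and Bowtie2 the tools, listed without roles per the submitters' processing notes. Not given in the sources used here are the peak caller and any control. The deposited lists have no header and 1 list per library. The deposited column 6 is read from its values as a signal at the summit in 786-O and Caki-1 replicate 1 and as a score in Caki-1 replicate 2, where column 5 fell within its peak for only 9.65% of peaks and so gave no summit. Ranks are percentiles within a list.

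Gene spans came from RefSeq (GRCh38.p14), and starts, strands and promoter sequences from the RefSeq promoter table, which gives no entry for RELB. Motifs were searched on both strands. Overlap needed at least 1 bp. Peaks and genes were counted with Python 3.11.15 and pandas 2.3.3, after checks on simulated peaks, and shares carry 95% Clopper-Pearson intervals. No set test or test between lines was made. The design named all 10 members, the gene of each pathway list with the highest lowest rank over the libraries and list genes found in 1 line only; other genes were named after their values were seen. Alternatives changed the gene-end window, extension, overlap, rank filter and libraries used. The members and lists were chosen with earlier results of these data known. Some marker genes are not reported here. Peak sequences were not used, since no genome was given.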

Additional observations from a re-analysis of the deposited data

How the results depend on the processing

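Of the main counts and shares recomputed under other settings, 62 stayed within 1.5 times or within their interval and 11 did not. The number of window peaks followed the extension: at 50 kb there were 69 (786-O) and 67 (Caki-1 replicate 2), and 26, 24 and 26 with no extension. With only peaks at or above the list median, the Caki-1 windows held 18 and 23 peaks. The share of window peaks of Caki-1 replicate 2 found in 786-O was 30.2% when the overlap had to reach 50% of the peak, against 55.8%. The number of members marked in 786-O alone was 0, and was 1 with peaks at or above the list median (ICAM1), 1 with no guard distance (BIRC3) and from 0 to 1 with a Caki-1 replicate left out (NFKBIA without replicate 2). TNFAIP3 kept a gene-end peak in 1 library with a window of 500 bp, since its annotated start lies inside its span, BIRC3 had one in all 3 with 3 kb, and ICAM1 in 1 with peaks at or above the list median. The causes of the other changes were not tested. No paired analysis was possible because the lines share only replicate number 2 among the libraries used. Read depth is unknown, so an absent peak says only that none was listed at that library's threshold.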

Other observations

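Further pathway genes are given as values, chosen after they were seen. The 3 genes of the linear ubiquitin ligase complex, RNF31, RBCK1 and SHARPIN, all had gene-end peaks in all 3 libraries, as had 44.3% of protein-coding genes. RNF31, its catalytic subunit, showed 102 and 43 as signals, and 216 as score. The kinase genes TBK1 and IKBKE had signals of 68 and 64, and 54 and 73, and scores of 169 and 228. CYLD, which removes ubiquitin chains from NF-kB signalling proteins, showed 57 and 80 as signals with a score of 429. The neighbouring chemokine genes CXCL1, CXCL2 and CXCL3, which are close paralogs, also had peaks in all 3 libraries, with signals from 16 to 33. CXCL8, a chemokine gene on the same chromosome, had no gene-end peak in any library. PTGS2, the inducible cyclooxygenase, had a signal of 18 (rank 35.9) in 786-O, a signal of 59 (rank 96.5) in Caki-1 replicate 1 and a score of 375 (rank 99.3) in replicate 2.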
